A study of Homo sapiens with 2 samples.

Results

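The genes of respiratory complexes II to V were compared between H9 cells treated with small interfering RNA against HNRNPA1 and H9 cells treated with a control small interfering RNA. H9 is an established human embryonic stem cell line. Treatment lasted 48 h in both conditions, no other agent is named, and each condition had 1 library (siHNRNPA1 and sicontrol), so no difference below has a replicate check and no p-value is given. The genes were chosen by name: SDHA to SDHD, CYC1, and names beginning with UQCR, COX4 to COX8, ATP5, MT-CO, MT-CYB or MT-ATP. This took 221 of the 95139 transcripts listed and 58 of the 20263 gene identifiers, of which 52 are nuclear and 6 mitochondrial. The 58 identifiers carry 57 names, because SDHD names 2 of them. One of these (ENSG00000255292) is a readthrough gene that overlaps BCO2 and TEX12.

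The respiratory chain passes electrons from reduced cofactors to oxygen and stores the energy as a proton gradient across the inner mitochondrial membrane. Complex II (succinate dehydrogenase) feeds electrons from succinate into ubiquinone, complex III (the cytochrome bc1 complex) passes them to cytochrome c, complex IV (cytochrome c oxidase) reduces oxygen, and complex V (ATP synthase) uses the gradient to make ATP. Complex II is built from nuclear gene products alone. The other complexes join nuclear subunits, made in the cytosol, with subunits encoded and translated inside the mitochondrion. Pluripotent cells in culture are known to rely strongly on glycolysis and to keep an assembled respiratory chain.

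Levels are FPKM summed over the transcripts of a gene. Folds are log2((siHNRNPA1 + 1)/(sicontrol + 1)) of these sums, which understates the change of weakly expressed genes. Genes with a mean FPKM of 1 or more were kept, and a difference of 2-fold or more is called higher or lower. The siHNRNPA1 library held 28147828 estimated counts and the sicontrol library 26680342. HNRNPA1 itself had 179.9 FPKM with siHNRNPA1 and 663 FPKM with sicontrol, or 27.1% of the control level. All 7 pluripotency markers examined were kept, 5 with a fold below 0 and 2 above. SOX2 had 58.3 FPKM with siHNRNPA1 and 126 FPKM with sicontrol (-1.10), the only one past 2-fold. POU5F1 had 1355 FPKM with siHNRNPA1 and 864 FPKM with sicontrol (0.65), SALL4 stood at -0.37 and NANOG at -0.31. Of the 8 markers of fibroblasts and blood, 4 were kept, with folds of 0.75 (COL1A1), -0.61 (COL1A2), -0.36 (THY1) and -0.34 (PDGFRB), and LUM and DCN were listed at 0 in both libraries. THY1, which stem cells also express, had 181 FPKM with siHNRNPA1 and 233 FPKM with sicontrol. The part of these markers in the results below was not tested. The median fold of all 11921 genes kept was -0.13.

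Nuclear and mitochondrial genes of complexes II to V stood mostly on opposite sides of 0. Of 44 nuclear genes kept, 39 had a fold above 0 and 5 below, against 45.2% of all genes kept above 0. Higher by 2-fold or more were 9 of them, or 20.5%, against 12.4% of all genes kept, and none was at least 2-fold lower, against 21.9%. The nuclear median was 0.54 and the range -0.87 to 1.89. All 6 mitochondrial genes had folds below 0, from -0.79 to -0.19 with a median of -0.43, and none reached 2-fold. Summed over genes, the nuclear ones had 6466 FPKM with siHNRNPA1 and 4165 FPKM with sicontrol. The mitochondrial ones had 63171 FPKM with siHNRNPA1 and 90696 FPKM with sicontrol. In such bulk libraries, fewer cells of a type and less RNA per cell cannot be told apart. The 8 genes under the expression minimum are all nuclear and are named below.

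**Figure D1:**
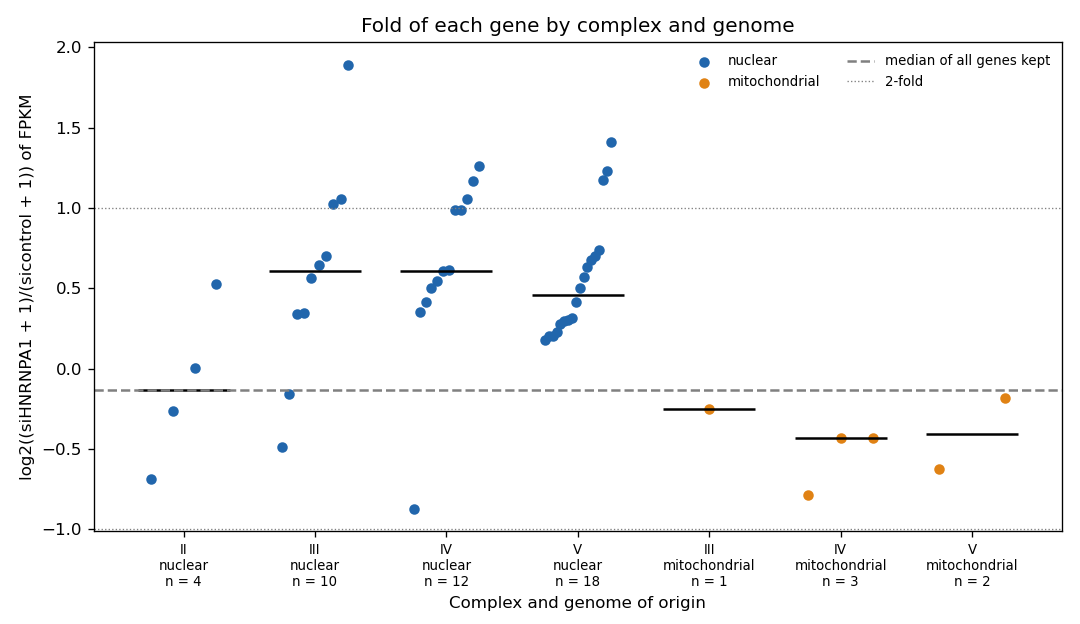
Log2 fold of FPKM (siHNRNPA1 over sicontrol, pseudocount 1) of each gene kept, by complex and genome of origin. Points are genes, short black lines are medians, the dashed line is the median of all genes kept (-0.13) and dotted lines mark 2-fold. On this scale all 18 nuclear complex V genes lie above 0, of which 7 lie below 0 with TPM over nuclear genes alone, and all 6 mitochondrial genes lie below.

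In complex II, none of the 4 genes kept was past 2-fold, although SDHD stood at -1.04 with TPM over nuclear genes alone. Their median was below 0, though it was 0.025 when scaled by the median ratio of all genes. SDHA, the flavoprotein that oxidises succinate, had 61.8 FPKM with siHNRNPA1 and 61.7 FPKM with sicontrol (fold 0.0019). SDHB, the iron-sulfur subunit, had 57.6 FPKM with siHNRNPA1 and 69.3 FPKM with sicontrol (-0.26). The 2 membrane anchors, which hold the ubiquinone site, went opposite ways. SDHD had 18.3 FPKM with siHNRNPA1 and 30.1 FPKM with sicontrol (-0.69). SDHC had 23.5 FPKM with siHNRNPA1 and 16.0 FPKM with sicontrol (0.53). The direction for SDHC depends on the measure, since its estimated counts were 2211 with siHNRNPA1 and 3205 with sicontrol. The complex II median was -0.13, level with all genes kept, while those of nuclear complexes III, IV and V were 0.61, 0.61 and 0.46. The readthrough gene named SDHD had 1 estimated count with siHNRNPA1 and 5 with sicontrol and was not kept.

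In complex III, 8 of 10 nuclear genes were above 0 and 3 were at least 2-fold higher, or 30% against 12.4% of all genes kept. With TPM, 1 was at least 2-fold higher, UQCRQ. After subtraction of the nearest genes described below, 6 of the 10 were above 0 and 4 below, against 50.1% of all genes above 0. UQCRQ, a small subunit that binds next to cytochrome b, had the highest fold of all genes chosen by name. It had 113 FPKM with siHNRNPA1 (109 to 118 by counting error) and 29.8 FPKM with sicontrol (27.6 to 32.1), a fold of 1.89. UQCR11 had 102 FPKM with siHNRNPA1 and 48.6 FPKM with sicontrol (1.05), and it overlaps another listed gene on the same strand. The core protein gene UQCRC1 had 194 FPKM with siHNRNPA1 and 94.6 FPKM with sicontrol (1.03). Its partner UQCRC2, the other core protein, had 40.7 FPKM with siHNRNPA1 and 45.5 FPKM with sicontrol (-0.16), so the pair stood on opposite sides of 0. Both nuclear genes of the electron path were above 0. CYC1, cytochrome c1, had 197 FPKM with siHNRNPA1 and 133 FPKM with sicontrol (0.56). UQCRFS1, the Rieske iron-sulfur protein, had 31.2 FPKM with siHNRNPA1 and 18.8 FPKM with sicontrol (0.70). The hinge protein gene UQCRH, the most abundant nuclear gene of the complex, had 498 FPKM with siHNRNPA1 and 317 FPKM with sicontrol (0.65). UQCRHL, an intronless copy of UQCRH whose reads may be shared with it, had 3.24 FPKM with siHNRNPA1 and 2.33 FPKM with sicontrol (0.35). The small subunit gene UQCR10 had 118 FPKM with siHNRNPA1 and 92.8 FPKM with sicontrol (0.34). UQCRB, which contacts the ubiquinone site, had 51.6 FPKM with siHNRNPA1 and 72.7 FPKM with sicontrol (-0.49), but its estimated counts went the other way, with 4113 with siHNRNPA1 and 3430 with sicontrol.

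In complex IV, all 10 of the ubiquitous nuclear subunits examined were above 0, with folds from 0.35 to 1.26, and 3 were at least 2-fold higher. Of all 12 nuclear genes kept these were 25%, against 12.4% of all genes kept, and with TPM over nuclear genes alone 0 were. After subtraction of the nearest genes described below, 8 of the 12 were above 0, against 50.1% of all genes. The 4 below were COX6C (-0.19), COX6A1 (-0.38), COX7C (-0.19) and the testis form COX6B2 (-1.25). The ubiquitous small subunits surround the catalytic core and regulate it. COX7A2 had 84.5 FPKM with siHNRNPA1 and 34.7 FPKM with sicontrol (1.26). COX5B, a zinc-binding subunit, had 144 FPKM with siHNRNPA1 and 63.2 FPKM with sicontrol (1.17). COX6B1, which faces the intermembrane space, had 228 FPKM with siHNRNPA1 and 109 FPKM with sicontrol (1.06). COX4I1, the subunit that binds ATP, and COX8A both stood at 0.99, just under 2-fold. COX4I1 had 334 FPKM with siHNRNPA1 and 168 FPKM with sicontrol, and COX8A had 495 FPKM with siHNRNPA1 and 249 FPKM with sicontrol. The other 5 were within 2-fold. COX7B had 39.5 FPKM with siHNRNPA1 and 25.5 FPKM with sicontrol (0.61). COX6C had 98.6 FPKM with siHNRNPA1 and 67.1 FPKM with sicontrol (0.55). COX6A1 had 447 FPKM with siHNRNPA1 and 315 FPKM with sicontrol (0.50). All of these are small subunits around the core, as are the last 2. COX7C had 256 FPKM with siHNRNPA1 and 191 FPKM with sicontrol (0.42). COX5A had 118 FPKM with siHNRNPA1 and 92.4 FPKM with sicontrol (0.35). COX8A and COX6A1 each overlap another listed gene on the same strand, so reads there could be divided between both. COX7A2L, a factor that joins complexes III and IV into supercomplexes, had 41.0 FPKM with siHNRNPA1 and 26.5 FPKM with sicontrol (0.61). Its estimated counts were close, at 1580 with siHNRNPA1 and 1409 with sicontrol.

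The isoforms of complex IV that are restricted to certain tissues were near the detection limit. COX4I2, COX7B2 and COX8C were listed at 0 in both libraries. The muscle form COX6A2 had 0 estimated counts with siHNRNPA1 and 8 with sicontrol. The muscle form COX7A1 had 35 estimated counts with siHNRNPA1 and 7 with sicontrol. The testis form COX6B2 was the only one kept, with 1.06 FPKM with siHNRNPA1 and 2.78 FPKM with sicontrol (-0.87), the lowest fold of the nuclear genes kept. It overlaps another listed gene on the same strand.

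In complex V, all 18 nuclear genes kept were above 0, but 7 of them were below 0 with TPM over nuclear genes alone, and 7 after subtraction of the nearest genes described below. At least 2-fold higher were 3, or 16.7%, near the 12.4% of all genes kept. The folds were uneven within each part of the enzyme. In the catalytic F1 head the α and β subunits, which hold the nucleotide sites, differed little between libraries. ATP5A1 (α) had 163 FPKM with siHNRNPA1 and 134 FPKM with sicontrol (0.28, or 0.74 over protein-coding transcripts alone). ATP5B (β) had 380.4 FPKM with siHNRNPA1 and 305 FPKM with sicontrol (0.32). ATP5C1, the γ subunit that turns inside the head, had 101 FPKM with siHNRNPA1 and 87.7 FPKM with sicontrol (0.20). The subunits at the foot of this rotor were at least 2-fold higher. ATP5D (δ) had 90.4 FPKM with siHNRNPA1 and 38.0 FPKM with sicontrol (1.23). ATP5E (ε) had 17.6 FPKM with siHNRNPA1 and 7.24 FPKM with sicontrol (1.18, or 0.89 with a pseudocount of 5 FPKM).

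The peripheral stalk holds the head still while the rotor turns, and its 4 genes had folds from 0.18 to 0.70. ATP5H had 207 FPKM with siHNRNPA1 and 127 FPKM with sicontrol (0.70). The other 3 were closer to 0. ATP5O, which overlaps another listed gene on the same strand, had 111 FPKM with siHNRNPA1 and 94.6 FPKM with sicontrol (0.23). ATP5J had 104 FPKM with siHNRNPA1 and 90.0 FPKM with sicontrol (0.21). ATP5F1 had 44.9 FPKM with siHNRNPA1 and 39.5 FPKM with sicontrol (0.18). The c ring, which is turned by the protons, is made from 3 genes that encode the same mature protein with different import sequences. ATP5G2 was the most abundant of them, with 241 FPKM with siHNRNPA1 and 195 FPKM with sicontrol (0.30). ATP5G1 had 123 FPKM with siHNRNPA1 and 73.1 FPKM with sicontrol (0.74). ATP5G3 had 48.6 FPKM with siHNRNPA1 and 32.5 FPKM with sicontrol (0.57). Among the membrane subunits that hold ATP synthase dimers together, ATP5I had 376 FPKM with siHNRNPA1 and 140.4 FPKM with sicontrol, a fold of 1.41. The other 2 were within 2-fold. ATP5J2 had 496 FPKM with siHNRNPA1 and 311 FPKM with sicontrol (0.67). ATP5L had 102 FPKM with siHNRNPA1 and 65.4 FPKM with sicontrol (0.63). ATP5J2 overlaps the readthrough gene ATP5J2-PTCD1 on the same strand, which had 94 estimated counts with siHNRNPA1 and 68 with sicontrol (fold of FPKM 0.50).

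The names beginning with ATP5 also take in genes that are no subunit of the enzyme. ATP5SL, annotated in GENCODE as DMAC2, had 61.4 FPKM with siHNRNPA1 and 45.7 FPKM with sicontrol (0.42). ATP5S had 1.77 FPKM with siHNRNPA1 and 1.26 FPKM with sicontrol (0.29). The pseudogene ATP5EP2 and the gene copy ATP5L2 each had 1 estimated count with siHNRNPA1 and 0 with sicontrol. Without these genes, the readthrough genes, UQCRHL and COX7A2L, the nuclear median was 0.56. The table carries 2 further small subunits of complex V, its inhibitor, and a subunit of complex IV under names the choice did not take. The first 3 were added after their values had been seen. USMG5 (ATP5MD) stood at 1.17, C14orf2 (ATP5MPL) at 0.98, the ATP synthase inhibitor ATPIF1 at 0.55 and NDUFA4 at 1.26.

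**Figure D2:**
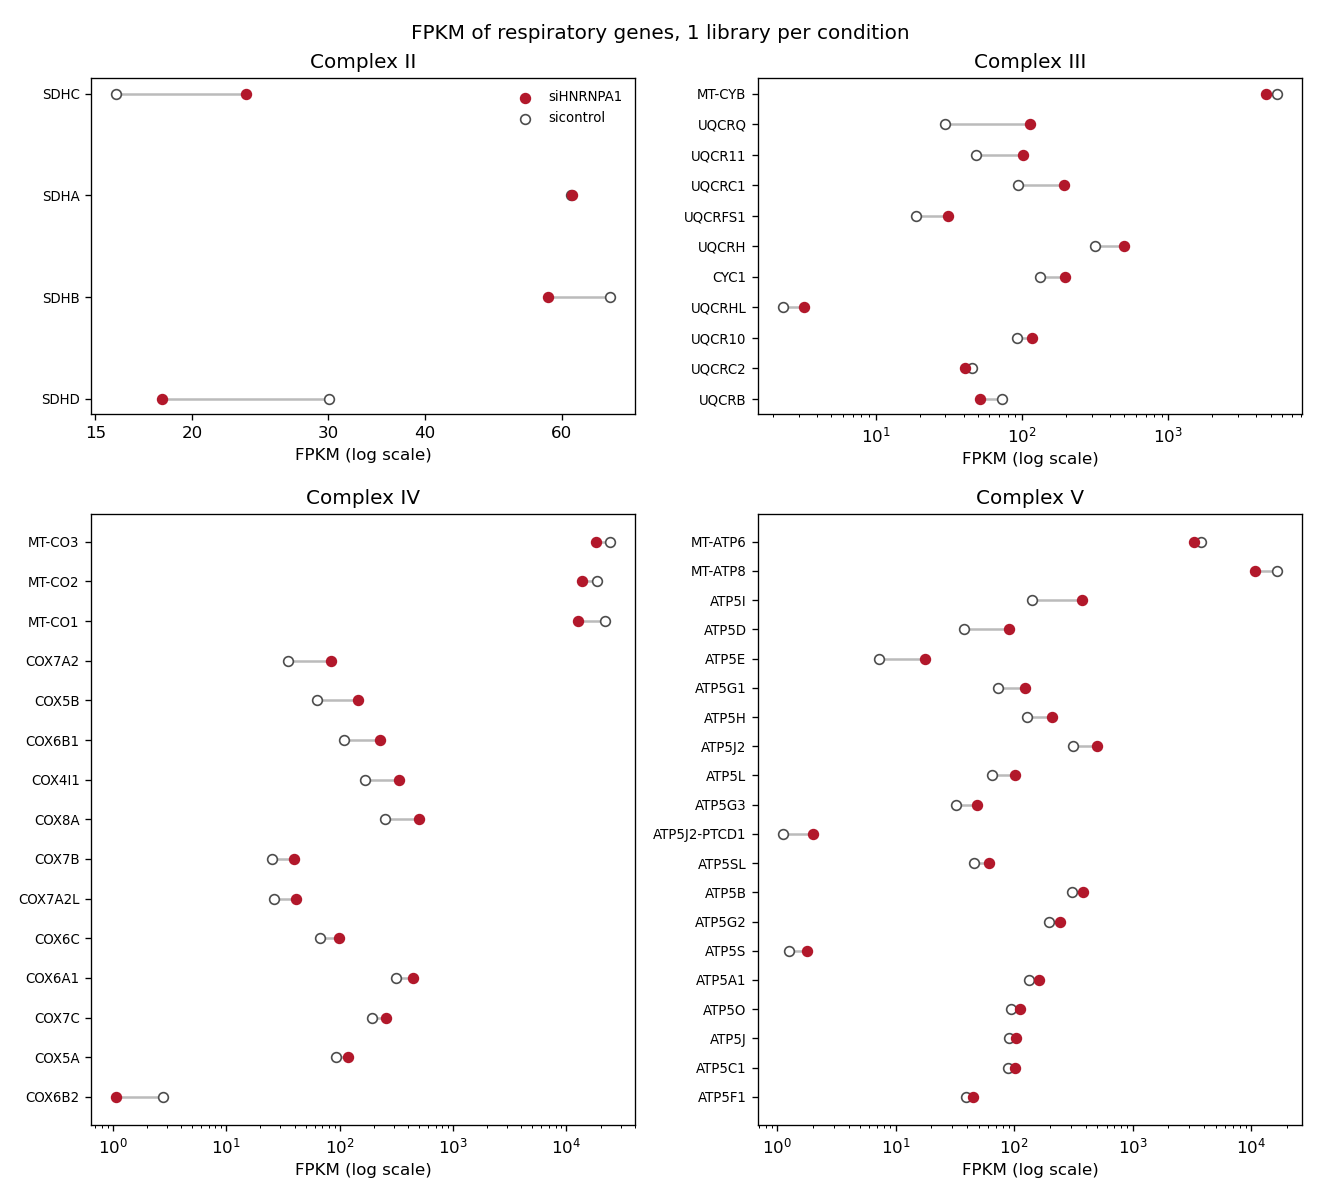
FPKM of each respiratory gene kept, on a log axis, with siHNRNPA1 (filled) and with sicontrol (open), by complex, with mitochondrial genes at the top and each genome in order of fold. Each point is 1 library. Mitochondrial genes lie above every nuclear gene in both libraries, from 3303 to 18034 FPKM with siHNRNPA1 and from 3758 to 24347 FPKM with sicontrol.

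Mitochondrial messengers are cut out of long transcripts of the circular genome. The 6 genes are described in their order along its heavy strand, since neighbours share a precursor. MT-CO1, the catalytic subunit of complex IV, had 12699.7 FPKM with siHNRNPA1 and 21933 FPKM with sicontrol, and with -0.79 the lowest fold of the 6. MT-CO2, which takes electrons from cytochrome c, had 13736 FPKM with siHNRNPA1 and 18560.2 FPKM with sicontrol (-0.43). MT-ATP8 had 10733 FPKM with siHNRNPA1 and 16549 FPKM with sicontrol (-0.62). MT-ATP6, the proton channel of complex V, had 3303 FPKM with siHNRNPA1 and 3758 FPKM with sicontrol (-0.19). These 2 genes overlap and are carried by one messenger, so how reads in the overlap were divided affects both values. MT-CO3 had 18034 FPKM with siHNRNPA1 and 24347 FPKM with sicontrol (-0.43). MT-CYB, cytochrome b of complex III, had 4665 FPKM with siHNRNPA1 and 5549 FPKM with sicontrol (-0.25). There was no steady order of folds along the genome. All 13 mitochondrial messengers together made up 18.1% of TPM with siHNRNPA1 and 28.2% with sicontrol. Of the 7 that encode complex I subunits, 5 were below 0 and 2 above, with folds from -1.36 to 0.31. Their median was -0.06, and 1 was at least 2-fold lower (14.3%, against 21.9% of all genes kept).

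Because both values come from the same library, the nuclear share within a complex does not depend on how the libraries are scaled to each other. In complex III the nuclear genes held 22.4% of the summed FPKM with siHNRNPA1 and 13.4% with sicontrol. In complex IV the share was 4.89% with siHNRNPA1 and 2.03% with sicontrol. In complex V it was 16.0% with siHNRNPA1 and 8.09% with sicontrol. The nuclear share was thus higher with siHNRNPA1 in each of the 3 complexes that draw on both genomes.

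**Figure D3:**
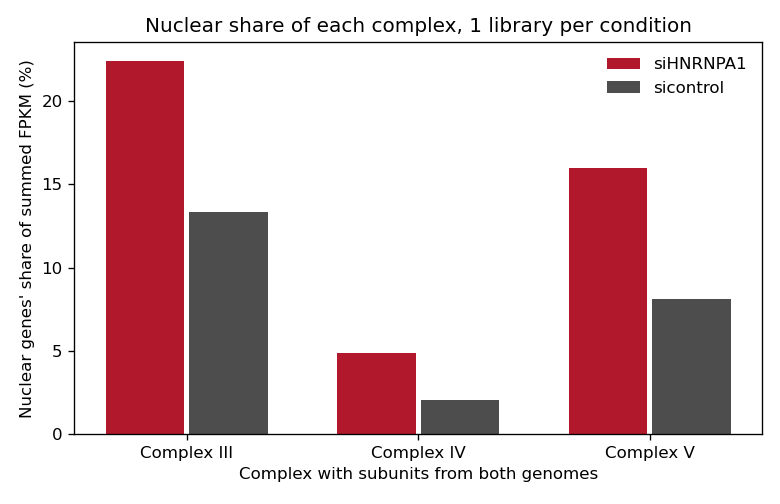
Share of each complex's summed FPKM that comes from nuclear genes (%), with siHNRNPA1 (red) and with sicontrol (grey), for the complexes with subunits from both genomes. Each bar is 1 library. The share is 4.89% with siHNRNPA1 and 2.03% with sicontrol for complex IV, the lowest of the 3.

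The size of the nuclear difference depended on the scaling. The percentages in parentheses are the same counts over all genes kept. With TPM, 38 nuclear genes were above 0 (40.4% of all genes), 6 were higher by 2-fold or more (10.5%) and 1 lower (28%). With TPM over nuclear genes alone, 31 were above 0 (34.2%), 2 past 2-fold upward (7.78%) and 2 downward (33.6%). With a median ratio of all genes, 39 were above 0 (50%), 11 past 2-fold upward (16%) and 0 downward (18.4%). With estimated counts scaled to equal totals, 39 were above 0 (46.4%), 11 past 2-fold upward (14.5%) and 1 downward (24.7%). With a pseudocount of 0.1 FPKM, 9 were past 2-fold upward (15.3%) and 1 downward (27%). More nuclear genes were above 0 than below under each of these scalings, and the mitochondrial genes were below 0 under each that covers them.

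The transcripts of nuclear respiratory genes are short. The leading transcripts of the nuclear genes kept had a median length of 1119.5 nucleotides and a median GC content of 48.3%, against 2790.0 nucleotides and 50.6% for all genes kept. Each gene was therefore set beside its 100 nearest genes in mean FPKM, GC content and length. The median fold of these nearest genes had a median of 0.50 over the nuclear respiratory genes, close to their own 0.54. After subtraction the nuclear median was 0.16, with 26 genes above 0 and 18 below, against 50.1% of all genes above 0. At least 2-fold above their nearest genes were 8 nuclear genes, or 18.2% against 8.11% of all genes, and 1 was at least 2-fold below (8.35% of all genes), COX6B2. The 8 were ATP5E (2.38), ATP5G3 (1.71), UQCRFS1 (1.67), COX7B (1.42), ATP5S (1.35), UQCRQ (1.23), ATP5F1 (1.05) and ATP5L (1.04). All but UQCRQ of them have leading transcripts of 1577 nucleotides or more. Of the genes past 2-fold before subtraction, UQCRQ and ATP5E were thus still past it, while ATP5I (0.48), COX7A2 (0.84), COX5B (0.43), UQCRC1 (0.42), UQCR11 (0.28), COX6B1 (0.18) and ATP5D (0.12) were within it. The complex II median was -0.52 by this measure. The mitochondrial genes stood from -1.40 (MT-CO1) to -0.86 (MT-CYB), but few genes reach their level, so their nearest genes were less abundant. The part of base composition and length in these folds was not tested.

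**Figure D4:**
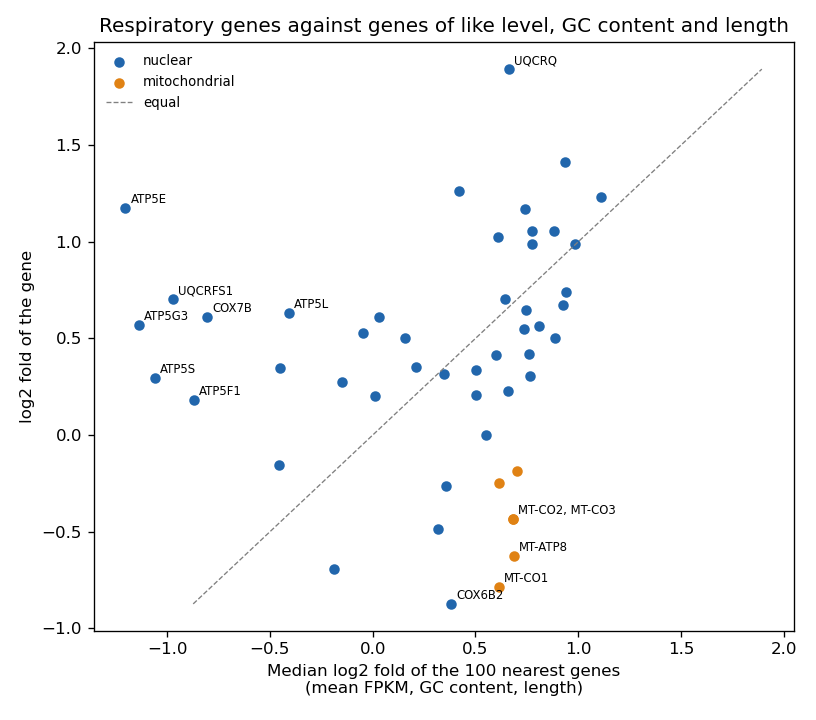
Log2 fold of each respiratory gene kept (vertical) against the median log2 fold of its 100 nearest genes in mean FPKM, GC content and length (horizontal). The dashed line marks equal values, and genes at least 2-fold away from it are named. Mitochondrial genes lie below the line, and ATP5E lies farthest above it, by 2.38.

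Transcript shares within a gene were compared for 33 of the genes, which had 2 or more listed transcripts and 5 FPKM or more in each library. The largest share difference reached 10 percentage points in 13 of them, or 39.4%, against 62.5% of all genes compared. It reached 20 points in 6, or 18.2%, against 40.6%. Both shares are below those of the genes at large, and that difference was not tested. The values below are estimates from overlapping transcripts, and junction reads were not used here.

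The largest difference was in ATP5D. Its transcript ENST00000215375 made up 67.6% of the gene's FPKM with siHNRNPA1 and 22.9% with sicontrol, and ENST00000591660 made up 20.7% with siHNRNPA1 and 64.6% with sicontrol. Both have 504 coding bases. COX7A2L likewise kept 342 coding bases in both of its main transcripts, of which ENST00000234301, of 1112 nucleotides, made up 94.0% with siHNRNPA1 and 63.2% with sicontrol. The 3056-nucleotide ENST00000378669 made up 3.17% with siHNRNPA1 and 31.5% with sicontrol. In ATP5A1, a transcript annotated as a target of nonsense-mediated decay (ENST00000590156) made up 0.0190% with siHNRNPA1 and 21.8% with sicontrol. Its estimated counts were 2 with siHNRNPA1 and 1746 with sicontrol. ENST00000590406, annotated as protein-coding with 617 coding bases, made up 21.6% with siHNRNPA1 and 0.274% with sicontrol. ENST00000590665, with 1593 coding bases, made up 71.9% with siHNRNPA1 and 54.7% with sicontrol. In COX6C, a transcript annotated as a target of nonsense-mediated decay (ENST00000520517) had 305 estimated counts with siHNRNPA1 and 0 with sicontrol.

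Smaller differences were spread over other genes. In ATP5SL, ENST00000592922 made up 42.1% with siHNRNPA1 and 15.4% with sicontrol, and ENST00000301183 made up 14.7% with siHNRNPA1 and 38.0% with sicontrol. In UQCRB, the 5575-nucleotide ENST00000287022 made up 36.2% with siHNRNPA1 and 18.2% with sicontrol, and the 595-nucleotide ENST00000518406 made up 46.8% with siHNRNPA1 and 65.0% with sicontrol. This is the gene whose FPKM and estimated counts went opposite ways. In ATP5G1, ENST00000393366 made up 40.7% with siHNRNPA1 and 22.9% with sicontrol. In COX4I1, ENST00000253452 made up 56.5% with siHNRNPA1 and 41.7% with sicontrol. In ATP5G2, ENST00000394349 made up 38.2% with siHNRNPA1 and 50.6% with sicontrol. These transcripts are all annotated as protein-coding. In SDHA, ENST00000504309 made up 75.0% with siHNRNPA1 and 85.8% with sicontrol. In SDHD, ENST00000526592 made up 17.3% with siHNRNPA1 (90 estimated counts) and was listed at 0 with sicontrol. ENST00000528048 of SDHD was listed at 0 with siHNRNPA1 and made up 19.95% with sicontrol (169 estimated counts).

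In ATP5C1 the difference fell on a single internal exon of 37 nucleotides near the end of the gene (chromosome 10, 7806974 to 7807010, plus strand), known to be left out in muscle. The form with this exon made up 94.7% of FPKM with siHNRNPA1 and 74.5% with sicontrol.

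**Figure D5:**
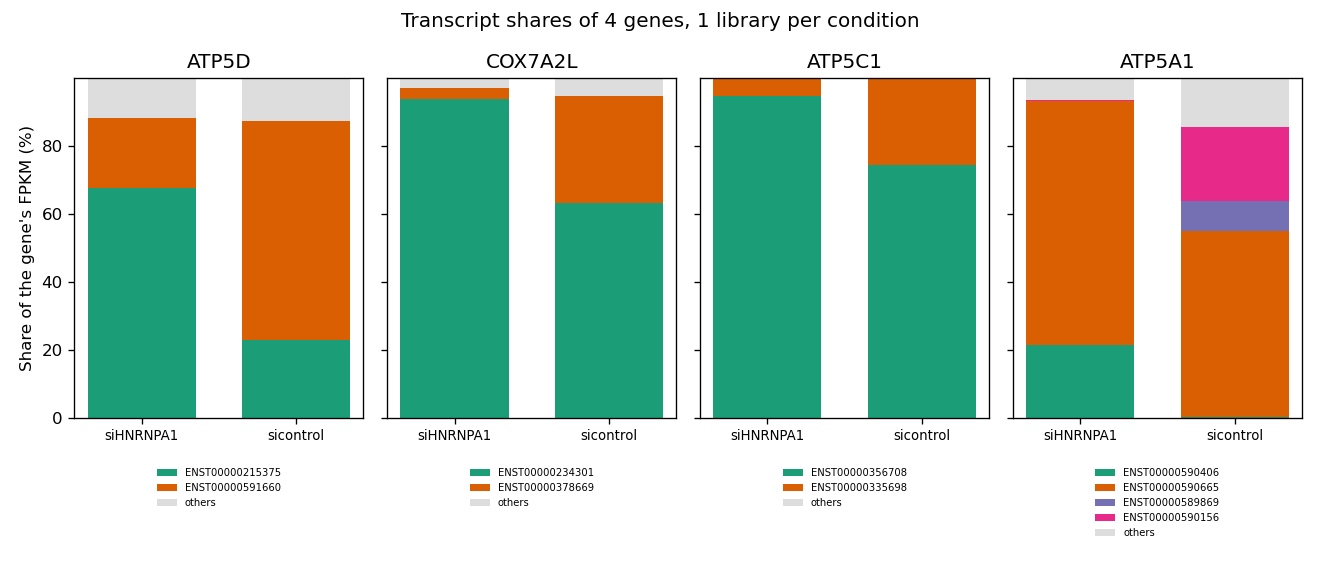
Transcripts as a share of the gene's FPKM (%), with siHNRNPA1 (left bar) and with sicontrol (right bar), for 4 genes with a difference of at least 20 percentage points in a transcript. Each bar is 1 library, and grey holds all other transcripts. In ATP5D the leading transcript makes up 67.6% with siHNRNPA1 and 22.9% with sicontrol.

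Nuclear respiratory genes are known to be controlled in part by NRF1, by GABPA (also called NRF-2) and by YY1, and many of their promoters lie in CpG islands. RefSeq promoter windows on GRCh38.p14, from 250 bases before to 50 after the gene start, were found for 36 of the nuclear genes, 33 of them kept. No transcription factor motif was searched. The 33 windows held a median of 21 CpG dinucleotides, against 14 over 27305 promoters, and had a median GC content of 61.0%, against 58.3%. The 27305 were not filtered by expression, unlike the 33, so the sets differ in more than respiratory function. CpG counts ran from 0 to 42 and had medians of 30 in the 3 windows of complex II, 18 in complex III, 19 in complex IV and 22 in complex V. Shown are the windows of the nuclear subunit genes with the highest and the lowest fold past the expression minimum, the testis form COX6B2 aside. Bases from the RefSeq gene start on are in capitals. GENCODE places the gene starts further upstream, at 132866560 for UQCRQ and 112086773 for SDHD. The last part of the lower case thus lies inside both genes as GENCODE annotates them. UQCRQ (fold 1.89) held 18 CpG dinucleotides and SDHD (-0.69) held 27, both above the 14 of promoters at large.
UQCRQ, chr5:132866392-132866691, plus strand: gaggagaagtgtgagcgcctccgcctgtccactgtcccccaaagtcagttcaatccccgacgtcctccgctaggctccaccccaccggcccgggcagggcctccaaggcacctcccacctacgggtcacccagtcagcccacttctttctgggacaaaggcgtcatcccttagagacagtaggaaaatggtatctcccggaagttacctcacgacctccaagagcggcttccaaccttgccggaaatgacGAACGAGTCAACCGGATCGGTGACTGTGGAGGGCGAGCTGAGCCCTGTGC
SDHD, chr11:112086623-112086922, plus strand: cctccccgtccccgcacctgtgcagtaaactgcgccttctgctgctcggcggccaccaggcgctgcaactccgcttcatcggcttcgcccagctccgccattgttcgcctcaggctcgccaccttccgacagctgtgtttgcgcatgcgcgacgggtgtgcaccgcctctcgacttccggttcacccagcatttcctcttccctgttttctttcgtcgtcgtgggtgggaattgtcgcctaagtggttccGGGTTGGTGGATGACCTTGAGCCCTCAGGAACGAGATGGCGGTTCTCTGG

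The genes that assemble the complexes and act beside them were mixed. Their counts stand against 12.4% of all genes kept at least 2-fold higher and 21.9% lower. Of 4 complex II assembly factors, SDHAF4 (-1.49) and SDHAF3 (-1.27) were at least 2-fold lower and SDHAF1 (1.10) at least 2-fold higher, with SDHAF2 at 0.52. Of 6 for complex III, 2 were higher by 2-fold or more and 0 lower. BCS1L, which inserts the Rieske protein, had 31.6 FPKM with siHNRNPA1 and 7.42 FPKM with sicontrol (1.95). UQCC3 stood at 1.74, UQCC2 at 0.66 and TTC19 at -0.53. Of 26 identifiers kept for complex IV, a list that also holds NDUFA4, 6 were at least 2-fold higher (23.1%) and 4 lower (15.4%). SURF1 (1.75), COA3 (1.66) and the translational activator TACO1 (1.48) were among the higher and the membrane insertase COX18 (-1.30) among the lower. All 4 measured for complex V were above 0, with FMC1 (1.74) and ATPAF2 (1.09) at least 2-fold higher and ATPAF1 at 0.82 and TMEM70 at 0.59. After subtraction of their nearest genes, SDHAF3 (-0.73), SDHAF1 (0.39), SURF1 (0.998), COA3 (0.80), TACO1 (0.72), COX18 (-0.09) and ATPAF2 (0.46) were within 2-fold. SDHAF4 (-1.30), BCS1L (1.28), UQCC3 (1.10) and FMC1 (1.67) were still past it. So were CMC1 (-1.44), COX10 (-1.02), COX11 (-1.03) and NDUFA4 (1.85) of the complex IV list. After subtraction 4 of that list were at least 2-fold higher and 3 lower, against 8.11% and 8.35% of all genes. Before subtraction, cytochrome c (CYCS, 0.07), its heme lyase HCCS (0.44) and the 4 nucleotide and phosphate carriers listed were all within 2-fold. Of the carriers, SLC25A3 stood at -0.48, SLC25A6 at 0.42 and SLC25A4 at 0.22. After subtraction, CYCS (1.26) and SLC25A4 (1.00) of these 6 genes were at least 2-fold higher, against 8.11% of all genes, and 0 were lower.

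Of 23 genes of mitochondrial transcription and RNA handling, 3 were at least 2-fold higher and 3 lower, or 13.0% each, near the share of all genes for higher and under it for lower. LRPPRC and SLIRP form a complex known to stabilise mitochondrial messengers, and they stood on opposite sides. LRPPRC had 16.9 FPKM with siHNRNPA1 and 42.8 FPKM with sicontrol (-1.29), and SLIRP had 187 FPKM with siHNRNPA1 and 83.4 FPKM with sicontrol (1.15). HSD17B10, a subunit of the enzyme that frees transfer RNAs from mitochondrial precursors, stood at 1.54 and FASTK at 1.19. After subtraction of their nearest genes LRPPRC stood at -0.13, SLIRP at 0.45, HSD17B10 at 0.75 and FASTK at 0.44, all within 2-fold. Of 9 nuclear regulators kept, 4 were lower by 2-fold or more (44.4%, against 21.9% of all genes kept) and 0 higher. GABPA, named above, had 1.65 FPKM with siHNRNPA1 and 6.47 FPKM with sicontrol (-1.50). SP1 stood at -1.30, the coactivator PPARGC1B at -1.10 and YY1 at -1.03. All 4 were within 2-fold after the subtraction, from -0.96 to -0.08. Whether these genes bear on the respiratory genes was not tested.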

How the data were processed

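Per the labels' protocols, RNA was extracted on columns and sequenced as Illumina mRNA libraries. Per the file headers, each transcript has its count, TPM and FPKM. The deposited counts are whole but divided between overlapping transcripts, and were treated as estimated counts. The FPKM and TPM values deposited by the authors were used as given. Which aligner and quantification program the authors ran is not given in the sources used here. Builds named in the submitters' processing notes are of mouse (GRCm38, mm10), but identifiers are human: 95033 transcripts are in GENCODE release 29 (GRCh38). Of the table, 6 columns match neither library and were not used.

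Values were summed per gene identifier with pandas 2.3.3 and scipy 1.17.1. With 1 library per condition no test was run. Counting intervals are exact 95% Poisson intervals on estimated counts and cover counting error only. The half-width of the log2 count ratio was at most 0.13 for the 46 genes kept with over 1000 counts in both libraries added together. It was at most 0.47 for all 50 kept. GC content and length are those of the leading GENCODE transcript. The fold calculation was tested on simulated data. Promoter windows are from RefSeq. Every respiratory gene is named or counted, and of each list of assembly, carrier, RNA and regulator genes the 4 largest absolute folds are named. The genes and lists were chosen with earlier results of these data known. One sequence of a respiratory gene and the result that rests on it are not reported here.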

Additional observations from a re-analysis of the deposited data

How the results depend on the processing

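No paired analysis was possible because each condition has 1 library and no result comes from a test. The direction of the nuclear median (0.54) and of the mitochondrial median (-0.43) was the same under all alternatives that gave a value. With TPM the nuclear median was 0.41, those of complexes II, III and IV were -0.28, 0.46 and 0.47, the mitochondrial median was -0.58, and 1 nuclear gene was at least 2-fold lower, while all genes had a median of -0.28. With TPM over nuclear genes alone, 2 nuclear genes were higher by 2-fold or more and 2 lower, and the medians were 0.22 over nuclear genes and -0.47, 0.27, 0.28 and 0.18 for complexes II, III, IV and V, with all genes at -0.46. By that scaling 31 nuclear genes were above 0 and 13 below. With median ratio scaling the medians were 0.69 over nuclear genes, 0.025, 0.76 and 0.76 for complexes II, III and IV, and -0.28 over mitochondrial genes, so the sign of complex II turned, with all genes at 0.0005. After subtraction of nearest genes by level, GC content and length they were 0.16, -0.52, 0.29, 0.16 and -1.12 in the same order and 0.15 for complex V, with 1 nuclear gene at least 2-fold lower. With estimated counts scaled to equal totals the complex II median was -0.42 and the mitochondrial median -0.41, and 1 nuclear gene was at least 2-fold lower, as with a pseudocount of 0.1 FPKM. Without the expression minimum the complex II median was -0.26. The cause of these differences was not tested. The other medians and counts include those with a pseudocount of 5 FPKM, with protein-coding transcripts alone or with established subunits alone (added after the data had been seen). The counts moved by at most 1.5 times, the furthest being 6 nuclear genes at least 2-fold higher with a pseudocount of 5 FPKM. The medians moved by less than the counting half-width of the gene nearest to them, which does not measure the spread of a median. For complex V that gene was ATP5J2-PTCD1 (half-width 0.47). The complex V median was 0.46, 0.35 with a pseudocount of 5 FPKM and 0.57 with protein-coding transcripts alone. Depth does not limit the abundant genes. COX6A2, COX7A1 and the readthrough gene named SDHD rest on at most 35 estimated counts in either library.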
